A study of Danio rerio with 8 samples.

Results

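Fibroblast growth factor (FGF) signalling genes were described in 8 RNA-seq libraries of zebrafish trunk tissue. The set was read from gene names: every gene whose name begins with fgf or spry, together with dusp6, etv4, etv5a, etv5b and il17rd. That choice was made with earlier results of these data known. These names found 51 genes among the 13872 of the deposited table, counting each gene name once. The embryos were 38 to 40 hours old and were either homozygous for the p162 allele of foxc1a, which encodes a forkhead transcription factor (MUT), or siblings (SIB). By their labels the siblings carried 1 copy of p162, while the series text calls the control samples wild type, and the controls are called siblings here. Each embryo's trunk was cut into an anterior piece (AS) of somitic segments 1 to 6, which the nerves of the pectoral fin cross, and a posterior piece (PS) of segments 7 to about 12, which those nerves do not enter. Heads and yolks had been taken off, and nothing in the labels says how many embryos a library pooled. There were 4 groups (SIB_AS, MUT_AS, SIB_PS and MUT_PS) of 2 libraries, of which one carries the number 3 in its title and the other, which has no number, is called replicate 1. Pairs of values give replicate 1 first and replicate 3 second, and every mean ± SD has n = 2.

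FGFs are small secreted proteins that bind heparan sulfate and receptor tyrosine kinases on neighbouring cells. Activated receptors signal mainly through Ras, Raf, MEK and ERK, and the response includes the ETS transcription factor genes etv4, etv5a and etv5b and a set of inhibitors that dampen the same pathway: the Sprouty proteins, the ERK phosphatase Dusp6 and the transmembrane protein Il17rd, also called Sef. In the fish trunk FGFs are known for the outgrowth of the pectoral fin bud, for the patterning and growth of somite muscle and for the ear and the pharyngeal pouches at the head end. By these roles the 51 genes divided into 21 secreted ligands, 3 hormone-like ligands, 6 intracellular FGFs, 5 receptor kinases, 2 receptor-like genes without a kinase, 5 feedback inhibitors and 3 ETS genes. The other 6 carry a matching name only. fgfr1op (now cep43) encodes a centrosomal protein, fgfr1op2 another protein named after a fusion partner, and spryd3, spryd4, spryd7a and spryd7b encode proteins with a SPRY domain, which is unrelated to Sprouty. All 51 accessions were found in the reference annotation.

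Values were RPKM, reads scaled by transcript length and by the mapped reads of the library, so levels of different genes can be set side by side. The table holds no read counts and the depth of the libraries is unknown. MUT_AS replicate 3 stood apart: it listed 17.5% of its transcripts at 0, where the 7 remaining libraries listed 4.59% to 8.01%, and its lowest percentile of non-zero values was 0.314 RPKM against 0.0101 to 0.0515. It also listed 11 of the 51 FGF genes at 0, where the other libraries listed between 0 and 2. The SD between replicates was 0.358 on the log2 scale in MUT_AS and 0.179 to 0.194 in the other groups. foxc1a itself stood at 18.1 and 16.3 RPKM in SIB_AS, 19.3 and 16.3 in MUT_AS, 7.74 and 7.32 in SIB_PS and 9.02 and 7.74 in MUT_PS, so its level does not check the genotype labels. The replicates are not said to come from separate clutches, so p-values measure only the spread between these libraries.

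Of the 51 genes, 37 reached a mean of 1 RPKM over the libraries and entered the test, a limma fit on log2(RPKM + 1) over all 10458 genes that did. The plot of levels by library shows the set ordered by role. dusp6 (30.5 RPKM over the 8 libraries), fgfr2 (27.7) and fgfr4 (24.0) were the highest of the pathway genes, while no secreted ligand passed 4.27, the mean of fgf10a. Summed over the 5 receptor kinases the level ran from 89.6 to 101 RPKM in the 4 AS libraries and from 53.6 to 61.2 in the 4 PS libraries. Summed over the 21 secreted ligands it ran from 33.2 to 42.9 in AS and from 24.3 to 26.8 in PS.

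**Figure D1:**
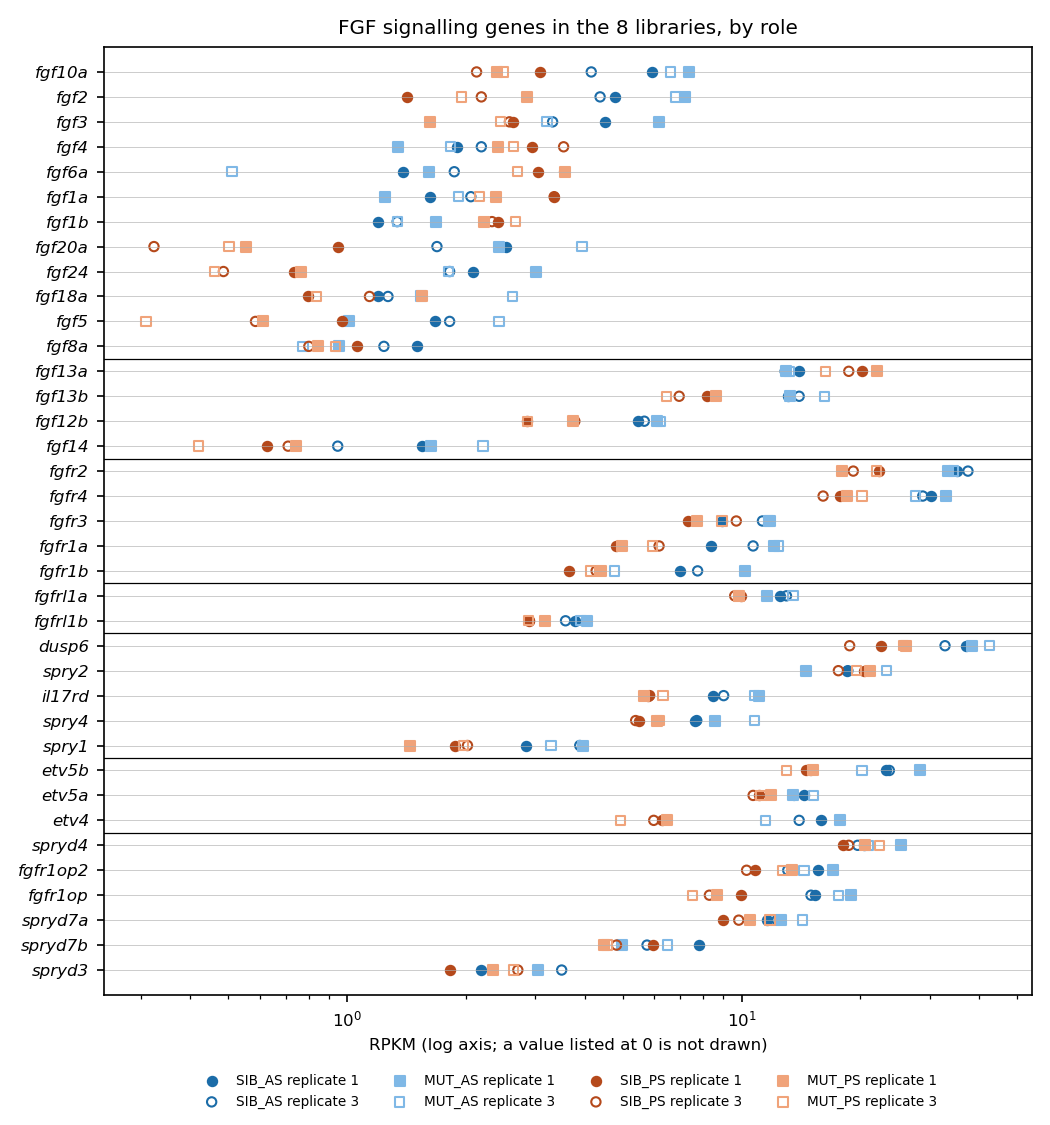
RPKM (log axis) of the 37 tested FGF signalling genes in the 8 libraries, 1 row per gene and black lines between roles; circles are SIB, squares MUT, blue AS, orange PS, filled replicate 1 and open replicate 3. Most rows have the 4 AS points to the right, whereas fgf4, fgf6a, fgf1a, fgf1b and fgf13a have them to the left and others, such as spry2 and fgf8a, have both mixed.

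Region was compared first, since the anterior pieces include the fin nerve territory. Most FGF genes that passed the test were higher in AS, but so were most genes that passed over the whole table. Only a few of the set went beyond that common shift on the log2(RPKM + 1) scale. In SIB 17 of 37 FGF genes were higher in AS and 5 lower, at a Benjamini-Hochberg adjusted p under 0.05 in limma, beside a background of 42.0% of all genes higher and 9.86% lower. In MUT 19 were higher and 3 lower, beside 44.3% and 11.1%. MUT_AS spread more than the other groups, and the fit uses 1 estimate of spread for all of them. As a share of those tested this was 45.9% and 13.5% in SIB and 51.4% and 8.11% in MUT, so the counts of the whole set lay near the background. Without the genes that carry a matching name only, 16 of 31 (51.6%) were higher and 5 (16.1%) lower in SIB. In MUT 18 of these 31 (58.1%) were higher and 3 (9.68%) lower. Whether any of these shares differs from the background was not tested. The median log2 difference (AS minus PS) of the 37 was 0.42 in SIB and 0.61 in MUT, and that of all genes tested was 0.40 in both genotypes. For the 31 it was 0.51 in SIB and 0.63 in MUT. Of the genes among the 37 that were higher in AS, 16 were shared, which is 94.1% of the SIB list and 84.2% of the MUT list. Of those lower in AS, 3 were shared, which is 60.0% and 100.0%. In these pieces of whole tissue, fewer cells of a type and less RNA per cell cannot be told apart.

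Once each library was shifted to 1 common median, far fewer FGF genes were higher in AS. Only etv4 and fgf2 passed in SIB, while fgf10a, fgf20a, fgf24, fgfr1a and fgfr1op also passed in MUT, which makes 7. The shift is 1 constant per library on the log2(RPKM + 1) scale and not a rescaling of RPKM. It removes a larger RPKM fold change from genes near 1 RPKM than from high genes. In SIB etv4 passed at 2.44 times its PS level in RPKM, and fgf24 did not at 3.2 times. fgf1a, fgf1b, fgf4, fgf6a and fgf13a were lower in AS in both genotypes. The background on that scale was 18.4% higher and 22.0% lower in SIB and 21.4% higher and 23.5% lower in MUT. Fast muscle markers moved with region: the 9 on the list held 2.75% to 5.51% of all RPKM in AS libraries and 9.48% to 12.7% in PS libraries, and 8 of the 9 were higher in every PS library than in any AS library. Their part in the region differences of the FGF genes was not tested. The counts on the deposited scale depended on single libraries, and a fit without a library leaves 1 in its group, which is assumed to vary like the others. In SIB the 17 higher genes became 8 without SIB_AS replicate 1, 10 without SIB_AS replicate 3, 10 without SIB_PS replicate 1 and 7 without SIB_PS replicate 3. The 5 lower genes became 0, 1, 0 and 0 in those 4 fits and 3 without either MUT_PS library. In MUT the 3 lower genes became 1 without either SIB_AS library, 5 without MUT_AS replicate 3 and 0 without MUT_PS replicate 1. With median scaling and without MUT_AS replicate 3, a combination chosen after the data were seen, 4 genes were higher and 6 lower in SIB and 9 higher and 6 lower in MUT.

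**Figure D2:**
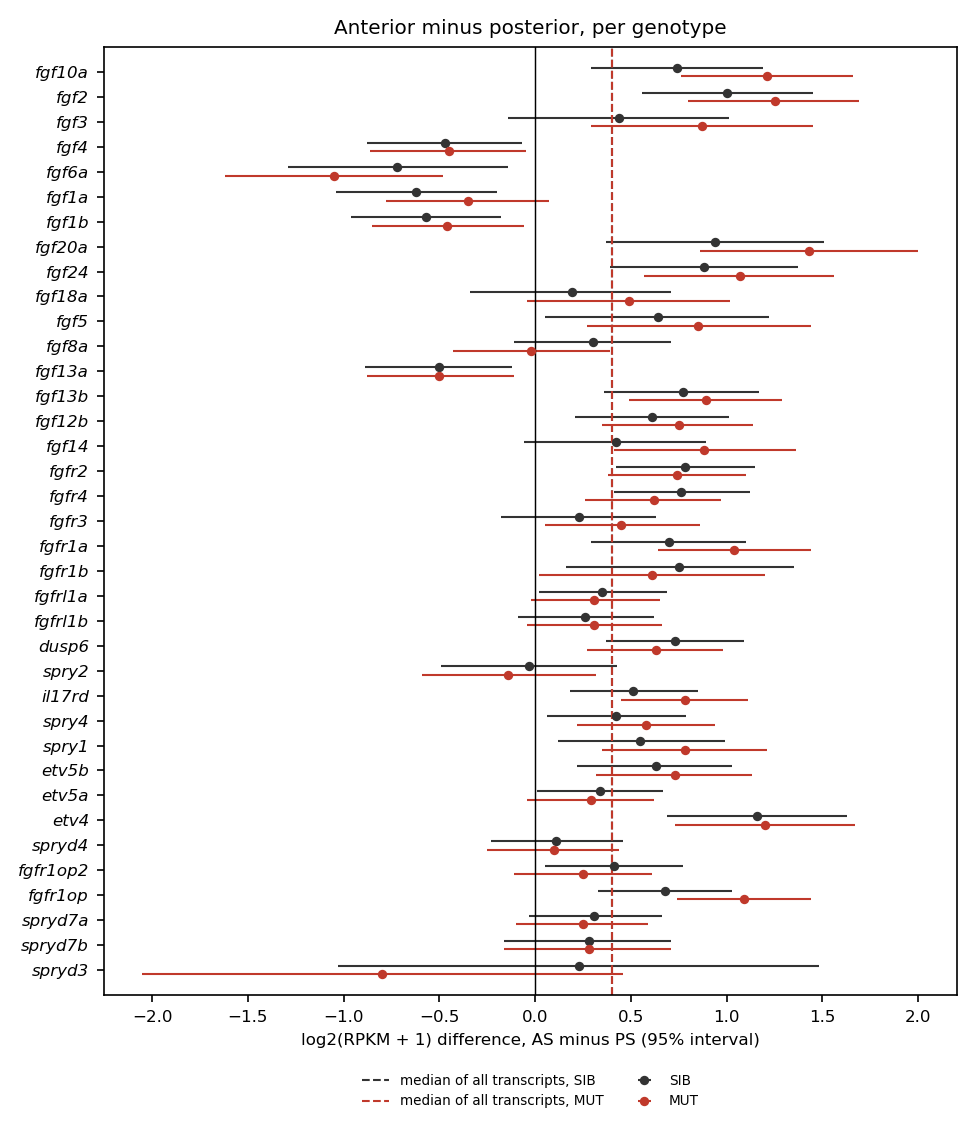
Difference between AS and PS on the log2(RPKM + 1) scale for each tested FGF gene, with 95% intervals from the limma fit, in SIB (black) and MUT (red); the dashed lines, which nearly coincide, mark the median of all genes tested, 0.40. Many points lie near the dashed lines. Those well to their right in both genotypes include etv4, fgf2, fgf20a and fgf24, and fgf4, fgf6a, fgf1a, fgf1b and fgf13a lie on the side of PS in both.

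Among the secreted ligands, fgf10a and fgf24 were higher in AS in both genotypes. fgf10a, which in fish and mouse signals from limb mesenchyme to the overlying ectoderm, stood at 5.94 and 4.16 RPKM in SIB_AS, 7.37 and 6.6 in MUT_AS, 3.09 and 2.13 in SIB_PS and 2.4 and 2.49 in MUT_PS. Its AS libraries lay above all PS libraries, by 0.74 (SE 0.20, adjusted p = 0.012) in SIB and 1.21 (SE 0.20, adjusted p = 0.000799) in MUT on the log2 scale. fgf24, which acts before fgf10a in the zebrafish pectoral fin field, stood at 2.09 and 1.82 RPKM in SIB_AS, 3.01 and 1.81 in MUT_AS, 0.734 and 0.486 in SIB_PS and 0.763 and 0.461 in MUT_PS. No AS value overlapped a PS value, and the log2 difference was 0.88 (SE 0.22, adjusted p = 0.00806) in SIB and 1.07 (SE 0.22, adjusted p = 0.00255) in MUT. In RPKM fgf24 was 3.2 times as high in AS as in PS in SIB and 3.94 times in MUT. With median scaling both genes passed in MUT, at adjusted p = 0.0101 and 0.033, and neither in SIB, at adjusted p = 0.204 and 0.106. Of 10 fin bud markers in the table, tbx5a, prdm1a and sp8a were higher in every AS library than in any PS library, and the fin fold genes and1, and2 and and3 were higher in PS. tbx5a, which is needed to form the pectoral fin bud, stood between 1.82 and 3.55 RPKM in AS and between 0 and 0.19 in PS, and the summed level of the 10 markers ran from 48.6 to 61.1 RPKM in AS and 82.5 to 107 in PS. The part of fin bud tissue in these differences was not tested.

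fgf2, a ligand that leaves cells without a signal peptide, was also higher in AS. It stood at 4.78 and 4.38 RPKM in SIB_AS, 7.2 and 6.81 in MUT_AS, 1.42 and 2.19 in SIB_PS and 2.86 and 1.95 in MUT_PS. All AS values were above all PS values, and fgf2 was one of only 2 FGF genes called higher in AS in both genotypes on both scales. The log2 difference was 1.0 (SE 0.20, adjusted p = 0.00247) in SIB and 1.25 (SE 0.20, adjusted p = 0.000652) in MUT as deposited, and 0.58 (adjusted p = 0.0462) and 0.82 (adjusted p = 0.011) after median scaling. fgf20a, known in zebrafish for starting fin regeneration, stood at 2.53 and 1.69 RPKM in SIB_AS, 2.43 and 3.94 in MUT_AS, 0.948 and 0.324 in SIB_PS and 0.553 and 0.502 in MUT_PS. Its AS values exceeded its PS values throughout, with a log2 difference of 0.94 (SE 0.26, adjusted p = 0.0117) in SIB and 1.43 (SE 0.26, adjusted p = 0.00114) in MUT. It passed the median-scaled test in MUT (adjusted p = 0.0122) and not in SIB (adjusted p = 0.133).

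fgf3 and fgf5 passed in MUT and not in SIB, but their calls depended on how the spread was estimated. fgf3, which acts in ear induction and in the pharyngeal pouches, stood at 4.5 and 3.32 RPKM in SIB_AS, 6.19 and 3.21 in MUT_AS, 2.64 and 2.58 in SIB_PS and 1.62 and 2.45 in MUT_PS. Its lowest AS value, in MUT_AS replicate 3, was above its highest PS value. The log2 difference was 0.44 (SE 0.26, adjusted p = 0.183) in SIB and 0.87 (SE 0.26, adjusted p = 0.0162) in MUT. fgf5, a regulator of hair growth in mammals, stood at 1.67 and 1.82 RPKM in SIB_AS, 1.01 and 2.43 in MUT_AS, 0.969 and 0.586 in SIB_PS and 0.613 and 0.309 in MUT_PS. Its AS and PS ranges did not overlap either, although MUT_AS replicate 1 lay just above SIB_PS replicate 1. The log2 difference was 0.64 (SE 0.26, adjusted p = 0.0642) in SIB and 0.85 (SE 0.26, adjusted p = 0.0184) in MUT, and neither gene passed on the median scale. With a weight per group fgf5 also passed in SIB (adjusted p = 0.0076), while fgf3 did not (adjusted p = 0.0534). In a fit of only the libraries compared both passed in SIB (adjusted p = 0.0337 for fgf3 and 0.00447 for fgf5) and neither in MUT (0.0524 and 0.0692). The MUT difference of fgf3 was 0.49 (adjusted p = 0.07) without MUT_AS replicate 1, and that of fgf5 was 0.47 (adjusted p = 0.0636) without MUT_AS replicate 3. Markers of the ear and the pharyngeal arches were higher in the anterior pieces: the 4 ear markers in the table summed to 41.0 to 72.3 RPKM in AS and 4.3 to 11.0 in PS, and the 5 arch markers to 47.9 to 61.9 and 11.3 to 17.9. The part of these tissues in the levels of fgf3 and fgf5 was not tested.

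A second group of 4 ligands was lower in AS in SIB, where 9.86% of all genes were. In MUT fgf6a and fgf1b passed, and of these only fgf6a also passed with a weight per group (adjusted p = 0.00948). fgf6a, whose mouse counterpart is expressed in skeletal muscle, stood at 1.39 and 1.87 RPKM in SIB_AS, 1.61 and 0.511 in MUT_AS, 3.05 and 3.56 in SIB_PS and 3.57 and 2.7 in MUT_PS. All PS values were above all AS values, and MUT_AS replicate 3 was the lowest. On the log2 scale AS minus PS was -0.72 (SE 0.26, adjusted p = 0.0388) in SIB and -1.05 (SE 0.26, adjusted p = 0.00624) in MUT, and the MUT difference was -0.65 (adjusted p = 0.0135) without MUT_AS replicate 3. fgf4, best known from the limb bud ridge and somites of the mouse, stood at 1.9 and 2.19 RPKM in SIB_AS, 1.35 and 1.83 in MUT_AS, 2.94 and 3.54 in SIB_PS and 2.42 and 2.64 in MUT_PS. Its PS values also lay above its AS values, and its log2 difference of -0.47 (SE 0.18, adjusted p = 0.0488) in SIB passed while that of -0.45 (SE 0.18, adjusted p = 0.0548) in MUT did not.

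The paralogs fgf1a and fgf1b, ligands that can bind every FGF receptor kinase, showed the same order. fgf1a stood at 1.62 and 2.06 RPKM in SIB_AS, 1.25 and 1.92 in MUT_AS, 3.34 and 3.35 in SIB_PS and 2.39 and 2.17 in MUT_PS. SIB_PS was highest and no PS value fell within the AS range. Its log2 difference passed in SIB, at -0.62 (SE 0.19, adjusted p = 0.0205), and not in MUT, at -0.35 (SE 0.19, adjusted p = 0.137). fgf1b stood at 1.2 and 1.34 RPKM in SIB_AS, 1.68 and 1.34 in MUT_AS, 2.41 and 2.33 in SIB_PS and 2.22 and 2.67 in MUT_PS, again with separate ranges. Its log2 difference was -0.57 (SE 0.18, adjusted p = 0.0211) in SIB and -0.46 (SE 0.18, adjusted p = 0.0492) in MUT, where it no longer passed with a weight per group (adjusted p = 0.133) or with only the libraries compared (0.143). After median scaling all 4 ligands were lower in AS in both genotypes, with adjusted p values of 0.00832 and 0.00221 for fgf6a, 0.00628 and 0.00555 for fgf4, 0.00351 and 0.01 for fgf1a, and 0.00256 and 0.00353 for fgf1b, in SIB and MUT. The fast muscle markers given above were likewise higher in PS, and their part in the levels of these ligands was not tested. The RPKM ratio of fgf2 to fgf1a was 2.12 to 5.76 within AS libraries and 0.426 to 1.2 within PS libraries, where it passed 1 only in MUT_PS replicate 1. The ratio of fgf10a to fgf6a was 2.23 to 12.9 within AS libraries and 0.597 to 1.01 within PS libraries. Its value of 12.9 came from MUT_AS replicate 3, where fgf6a stood at 0.511 RPKM and the lowest percentile of non-zero values was 0.314. The other AS libraries gave 2.23 to 4.57. Multiplying all RPKM of a library by 1 factor leaves such ratios unchanged, but the median shift used here is not such a step. Both pairs were chosen after their values were seen.

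fgf8a, a central ligand of the midbrain-hindbrain boundary, heart and somites, was low in all groups. It stood at 1.5 and 1.24 RPKM in SIB_AS, 0.954 and 0.773 in MUT_AS, 1.06 and 0.8 in SIB_PS and 0.846 and 0.935 in MUT_PS, and its values in MUT overlapped between regions. The log2 difference was 0.30 (SE 0.19, adjusted p = 0.197) in SIB and -0.02 (SE 0.19, adjusted p = 0.926) in MUT. fgf18a, the paralog of fgf18b, ranged from 0.798 to 2.63 RPKM and did not pass in either genotype. The 9 remaining secreted ligands (fgf6b, fgf7, fgf8b, fgf10b, fgf16, fgf17, fgf18b, fgf20b and fgf22) were below a mean of 1 RPKM and were not tested. Among these fgf18b stood at 0.963 and 1.93 RPKM in SIB_AS, 1.23 and 2.57 in MUT_AS, 0.292 and 0.371 in SIB_PS and 0.108 and 0.163 in MUT_PS, and fgf8b at 0.417 and 0.343 RPKM in SIB_AS, 0.257 and 0.355 in MUT_AS, 0.0134 and 0.0076 in SIB_PS and 0.0298 and 0.0 in MUT_PS. In both, every AS library exceeded every PS library. fgf6b was listed at 0 in MUT_AS replicate 3 and had means of 0.29 ± 0.0129 RPKM in SIB_AS and 1.09 ± 0.0743 in SIB_PS. In MUT its regions overlapped, at 0.537 RPKM in MUT_AS replicate 1 and 0.44 and 0.665 in MUT_PS. The hormone-like ligands were all under 1 RPKM on average. fgf23, the phosphate hormone, stood at 0.0 and 0.11 RPKM in SIB_AS, 0.0371 and 0.0 in MUT_AS, 0.388 and 0.68 in SIB_PS and 0.43 and 0.651 in MUT_PS, with every PS library above every AS library. fgf21, a metabolic hormone, was listed at 0 in 3 of the 4 AS libraries and ran from 0.118 to 0.481 RPKM in PS. It stood at 0.272 RPKM in MUT_AS replicate 1, so its regions overlapped in MUT. fgf19, a bile acid and brain patterning signal, overlapped between the regions in MUT and had PS above AS in SIB.

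The intracellular FGFs are not secreted and are known as partners of voltage-gated sodium channels in excitable cells. Here fgf13a was lower and its paralog fgf13b higher in AS. fgf13a stood at 14.0 and 12.9 RPKM in SIB_AS, 13.0 and 13.2 in MUT_AS, 20.2 and 18.7 in SIB_PS and 22.1 and 16.3 in MUT_PS, and all PS values were above all AS values. On the log2 scale its AS minus PS difference was -0.50 (SE 0.17, adjusted p = 0.0328) in SIB and -0.50 (SE 0.17, adjusted p = 0.0319) in MUT. The MUT call was lost with a weight per group (adjusted p = 0.103), with only the libraries compared (0.0926) and without MUT_PS replicate 1 (-0.29, adjusted p = 0.26). fgf13b stood at 13.1 and 14.0 RPKM in SIB_AS, 13.3 and 16.2 in MUT_AS, 8.18 and 6.95 in SIB_PS and 8.62 and 6.46 in MUT_PS, with all AS values above all PS values. Its log2 difference was 0.77 (SE 0.18, adjusted p = 0.00592) in SIB and 0.89 (SE 0.18, adjusted p = 0.00235) in MUT. With median scaling fgf13a remained lower in AS in both genotypes (adjusted p = 0.00239 and 0.00193), and fgf13b was not called (adjusted p = 0.131 and 0.0517). The RPKM ratio of fgf13a to fgf13b was 1.07 and 0.92 in SIB_AS, 0.976 and 0.818 in MUT_AS, 2.47 and 2.7 in SIB_PS and 2.56 and 2.52 in MUT_PS. The plot of within-library ratios shows this separation, which was picked out after the values were seen and was not tested.

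**Figure D3:**
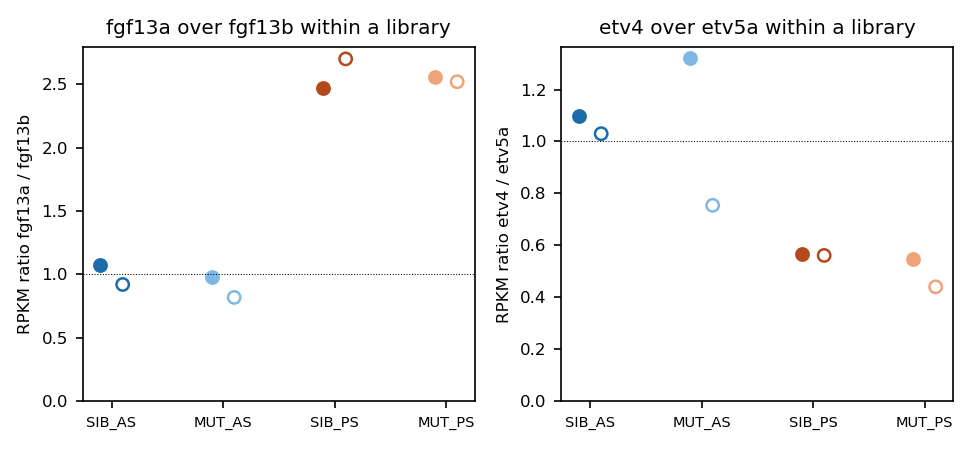
Ratio of RPKM within each library for fgf13a over fgf13b (left) and etv4 over etv5a (right), by group; filled points are replicate 1, open points replicate 3, and the dotted line marks equal levels. The fgf13 ratio lies between 0.818 and 1.07 in AS and between 2.47 and 2.7 in PS, and the etv ratio between 0.754 and 1.32 in AS and between 0.44 and 0.568 in PS.

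fgf12b followed fgf13b, at 5.45 and 5.67 RPKM in SIB_AS, 6.12 and 6.22 in MUT_AS, 2.86 and 3.78 in SIB_PS and 3.73 and 2.87 in MUT_PS, with separate ranges and a log2 difference of 0.61 (SE 0.18, adjusted p = 0.0169) in SIB and 0.75 (SE 0.18, adjusted p = 0.0057) in MUT. fgf14 stood at 1.55 and 0.947 RPKM in SIB_AS, 1.63 and 2.21 in MUT_AS, 0.628 and 0.709 in SIB_PS and 0.742 and 0.421 in MUT_PS. Its lowest AS value, in SIB_AS replicate 3, was above all PS values, and the log2 difference was 0.42 (SE 0.21, adjusted p = 0.126) in SIB and 0.88 (SE 0.21, adjusted p = 0.00593) in MUT. In a fit of only the libraries compared fgf14 passed in SIB too (adjusted p = 0.0443). Neither gene was called after median scaling. The 7 neuronal markers in the table summed to 371 to 523 RPKM in AS and 138 to 164 in PS, and all 7 were higher in every AS library. Their part in the levels of fgf12b, fgf13b and fgf14, and of fgf13a, which went the other way, was not tested. fgf11a and fgf12a were below a mean of 1 RPKM. fgf11a overlapped between regions in both genotypes, and fgf12a overlapped in SIB and had AS above PS in MUT.

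Of the 5 receptor kinases 4 were higher in AS in SIB and 3 in MUT, beside 42.0% and 44.3% of all genes. fgfr2, which stood at 35.1 and 37.5 RPKM in SIB_AS, 33.4 and 34.5 in MUT_AS, 22.3 and 19.2 in SIB_PS and 18.0 and 22.0 in MUT_PS, had the highest level of the 5. Its AS libraries formed a separate, higher range, and the log2 difference was 0.78 (SE 0.16, adjusted p = 0.00315) in SIB and 0.74 (SE 0.16, adjusted p = 0.00353) in MUT. The table holds 4 transcript rows of fgfr2, and the one with the highest mean was used. fgfr4, which is prominent in muscle progenitors of vertebrates, stood at 30.2 and 28.8 RPKM in SIB_AS, 33.0 and 27.6 in MUT_AS, 17.8 and 16.1 in SIB_PS and 18.5 and 20.2 in MUT_PS, again without overlap, with a log2 difference of 0.76 (SE 0.16, adjusted p = 0.00298) in SIB and 0.62 (SE 0.16, adjusted p = 0.00785) in MUT. fgfr1a stood at 8.39 and 10.7 RPKM in SIB_AS, 12.1 and 12.4 in MUT_AS, 4.82 and 6.18 in SIB_PS and 4.98 and 5.94 in MUT_PS. All AS values were above all PS values, with both MUT_AS libraries highest, and the log2 difference was 0.70 (SE 0.18, adjusted p = 0.00962) in SIB and 1.04 (SE 0.18, adjusted p = 0.00102) in MUT.

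fgfr1b, the paralog of fgfr1a, stood at 6.98 and 7.74 RPKM in SIB_AS, 10.2 and 4.77 in MUT_AS, 3.65 and 4.28 in SIB_PS and 4.41 and 4.14 in MUT_PS. The 2 MUT_AS libraries differed from each other by more than either PS group did, and replicate 3 came close to the PS range. Its log2 difference passed in SIB, at 0.75 (SE 0.27, adjusted p = 0.0363), and not in MUT, at 0.61 (SE 0.27, adjusted p = 0.0745). fgfr3, known for restraining cartilage growth, did not pass: it ranged from 8.9 to 11.8 RPKM in AS and from 7.32 to 9.7 in PS. The kinase-free receptors fgfrl1a and fgfrl1b had AS above PS in every library but small differences, and neither passed. fgfrl1a stood at 12.5 and 13.0 RPKM in SIB_AS, 11.6 and 13.5 in MUT_AS, 9.98 and 9.61 in SIB_PS and 9.87 and 9.84 in MUT_PS, and its log2 difference was 0.35 (SE 0.15, adjusted p = 0.0721) in SIB and 0.31 (SE 0.15, adjusted p = 0.0985) in MUT. In SIB it passed with a weight per group (adjusted p = 0.0254) and with only the libraries compared (0.0392). After median scaling only fgfr1a in MUT was called among the 7 receptor and receptor-like genes (log2 difference 0.61, adjusted p = 0.0283), and the differences of fgfrl1a and fgfrl1b turned below 0 in both genotypes and that of fgfr3 in SIB. fgfr1a in MUT kept a difference of 0.57 (adjusted p = 0.0532) with median scaling and without MUT_AS replicate 3.

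Of the 3 ETS genes, etv4 and etv5b were higher in AS in both genotypes, beside 42.0% of all genes in SIB and 44.3% in MUT, and etv4 also after median scaling. etv4, also called pea3, stood at 15.9 and 14.0 RPKM in SIB_AS, 17.8 and 11.5 in MUT_AS, 6.3 and 5.99 in SIB_PS and 6.49 and 4.94 in MUT_PS. No AS library overlapped a PS library, though MUT_AS replicate 3 was lower than the other AS libraries. The log2 difference was 1.16 (SE 0.21, adjusted p = 0.00159) in SIB and 1.2 (SE 0.21, adjusted p = 0.00107) in MUT, and after median scaling 0.74 (adjusted p = 0.0175) and 0.77 (adjusted p = 0.0127). In RPKM etv4 was 2.44 times as high in AS as in PS in SIB and 2.56 times in MUT. etv5b, also called erm, stood at 23.2 and 23.7 RPKM in SIB_AS, 28.3 and 20.2 in MUT_AS, 14.6 and 15.0 in SIB_PS and 15.2 and 13.0 in MUT_PS, with separate ranges and a log2 difference of 0.63 (SE 0.18, adjusted p = 0.0156) in SIB and 0.73 (SE 0.18, adjusted p = 0.00682) in MUT. etv5a, which ran from 13.5 to 15.2 RPKM in AS and from 10.7 to 11.9 in PS, was not called, at 0.34 (SE 0.15, adjusted p = 0.0805) and 0.29 (SE 0.15, adjusted p = 0.121). The ratio of etv4 to etv5a was 1.1 and 1.03 in SIB_AS, 1.32 and 0.754 in MUT_AS, 0.568 and 0.561 in SIB_PS and 0.548 and 0.44 in MUT_PS. This pair too was chosen after the values were seen and was not tested.

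Of the 5 feedback inhibitors 4 were higher in AS in both genotypes, beside the same 42.0% and 44.3%. dusp6, the ERK phosphatase, stood at 37.1 and 32.8 RPKM in SIB_AS, 38.5 and 42.6 in MUT_AS, 22.6 and 18.8 in SIB_PS and 26.1 and 25.7 in MUT_PS. AS and PS did not overlap, and the log2 difference was 0.73 (SE 0.16, adjusted p = 0.00406) in SIB and 0.63 (SE 0.16, adjusted p = 0.00778) in MUT. il17rd, which acts at the membrane, stood at 8.49 and 9.01 RPKM in SIB_AS, 11.1 and 10.8 in MUT_AS, 5.8 and 5.85 in SIB_PS and 5.65 and 6.32 in MUT_PS, with the MUT_AS libraries highest and a log2 difference of 0.51 (SE 0.15, adjusted p = 0.0166) in SIB and 0.78 (SE 0.15, adjusted p = 0.00171) in MUT.

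Of the 3 Sprouty genes, spry4 and spry1 passed the test and spry2 did not. spry4 stood at 7.61 and 7.7 RPKM in SIB_AS, 8.57 and 10.8 in MUT_AS, 5.5 and 5.39 in SIB_PS and 6.1 and 6.19 in MUT_PS, with a log2 difference of 0.42 (SE 0.16, adjusted p = 0.049) in SIB and 0.58 (SE 0.16, adjusted p = 0.0125) in MUT (adjusted p = 0.0536 with only the libraries compared). spry1 was the lowest, at 2.84 and 3.89 RPKM in SIB_AS, 3.96 and 3.29 in MUT_AS, 1.88 and 2.02 in SIB_PS and 1.44 and 1.97 in MUT_PS, with 0.55 (SE 0.19, adjusted p = 0.0351) in SIB and 0.78 (SE 0.19, adjusted p = 0.00673) in MUT. In spry4 and spry1 the 4 AS values lay above the 4 PS values. spry2, the most abundant Sprouty gene, stood at 18.5 and 18.6 RPKM in SIB_AS, 14.6 and 23.3 in MUT_AS, 20.4 and 17.6 in SIB_PS and 21.2 and 19.6 in MUT_PS and overlapped between regions, with a log2 difference of -0.03 (SE 0.21, adjusted p = 0.914) in SIB and -0.14 (SE 0.21, adjusted p = 0.593) in MUT. After median scaling 0 of the 5 inhibitors were called by limma, and 0 showed an unadjusted p under 0.05 in SIB and 2 in MUT. Those 2 went in opposite directions, il17rd higher in AS (0.35) and spry2 lower. The difference of spry2 was then -0.45 in SIB and -0.56 in MUT, and that of spry4 0.00 and 0.15. Among the 37 tested genes 23 were higher in all 4 AS libraries than in any PS library and 5 were lower, where 48.7% and 11.8% of all genes tested did the same.

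Among the 6 genes that share only a name, fgfr1op was higher in AS in both genotypes. It stood at 15.4 and 15.0 RPKM in SIB_AS, 19.0 and 17.6 in MUT_AS, 9.95 and 8.29 in SIB_PS and 8.65 and 7.5 in MUT_PS, with separate ranges and a log2 difference of 0.68 (SE 0.16, adjusted p = 0.00555) in SIB and 1.09 (SE 0.16, adjusted p = 0.000408) in MUT. spryd4, the highest of the 6, ran from 18.1 to 25.3 RPKM and was not called. The other 4 did not pass, and spryd3 was listed at 0 in MUT_AS replicate 3 against 1.82 to 3.5 RPKM in the other 7 libraries.

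The next comparison was between genotypes. No difference of an FGF gene was detectable with these libraries: in AS 0 of 37 genes passed in limma beside a background of 0.0478% of all genes, and in PS 0 of 37 passed beside 0.0%. At an unadjusted p under 0.05 there was 1 FGF gene in AS, fgf2, and 0 in PS, where all genes had 11.8% and 2.73%. After median scaling there was 1 in each region, both lower in MUT, where 1157 and 277 of all 10458 genes reached that p. These were fgf8a in AS (-0.42, unadjusted p = 0.0385 in limma) and fgf1a in PS (-0.47, unadjusted p = 0.035). fgf2 in AS was then at 0.45 (unadjusted p = 0.0543), and fgf8a on the deposited scale had been at -0.35. On the deposited scale the median log2 difference (MUT minus SIB) of the 37 was 0.11 in AS and -0.01 in PS, and that of all genes was 0.08 and 0.06. MUT_AS lay wholly above SIB_AS for 14 of the 37 and wholly below for 3, where 26.9% and 11.8% of all genes did so. Fast muscle markers held 4.46% and 5.51% of RPKM in SIB_AS and 2.75% and 3.2% in MUT_AS, and their part in the genotype values was not tested. In PS 7 lay wholly above and 4 wholly below, where the background was 24.0% and 8.92%. Erythroid markers held 0.265% and 0.211% of RPKM in SIB_PS and 1.43% and 0.459% in MUT_PS, and overlapped between genotypes in AS. Their part in the genotype values was not tested either.

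The fit gives an interval for each difference, which rests on 1 spread for all groups although MUT_AS spread more. The 95% interval of the log2 difference stayed between -1 and 1 for 36 of 37 genes in AS and for 36 of 37 in PS, and its median half-width was 0.40 in both. spryd3, which is not a pathway gene, was the exception. In AS the ligand nearest to a call on the deposited scale was fgf2, with means of 4.58 ± 0.28 RPKM in SIB and 7.0 ± 0.278 in MUT. Its log2 difference was 0.52 (95% interval 0.08 to 0.97), with unadjusted p = 0.026 and adjusted p = 0.371 in limma. Both MUT_AS libraries lay above both SIB_AS libraries. Among receptors it was fgfr1a, at 9.55 ± 1.64 RPKM in SIB and 12.2 ± 0.166 in MUT, a log2 difference of 0.34 (95% interval -0.07 to 0.74). Among inhibitors it was il17rd, at 8.75 ± 0.365 and 11.0 ± 0.227 RPKM, a log2 difference of 0.30 (95% interval -0.04 to 0.63), and among ETS genes etv4, at -0.06 (95% interval -0.53 to 0.41). The fin bud ligands gave 0.41 (95% interval -0.04 to 0.87) for fgf10a and 0.19 (95% interval -0.30 to 0.68) for fgf24.

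In PS the genes with the smallest p per role were fgf1a, fgfr4, dusp6 and etv5a. fgf1a had means of 3.34 ± 0.00552 RPKM in SIB and 2.28 ± 0.152 in MUT, and its log2 difference was -0.41 (95% interval -0.83 to 0.02). Both MUT_PS libraries lay below both SIB_PS libraries. dusp6 was at 20.7 ± 2.67 RPKM in SIB and 25.9 ± 0.281 in MUT, with 0.32 (95% interval -0.04 to 0.67), and both MUT_PS libraries were the higher ones. fgfr4 gave 0.18 (95% interval -0.17 to 0.53) and etv5a 0.08 (95% interval -0.25 to 0.41). Without MUT_AS replicate 1, which leaves replicate 3, with its many genes at 0, alone in its group, fgf6a (log2 difference -0.79, adjusted p = 0.028) and spryd3 (-1.92, adjusted p = 0.000588) were called lower in MUT_AS. No other FGF gene was called between genotypes under the alternatives run.

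**Figure D4:**
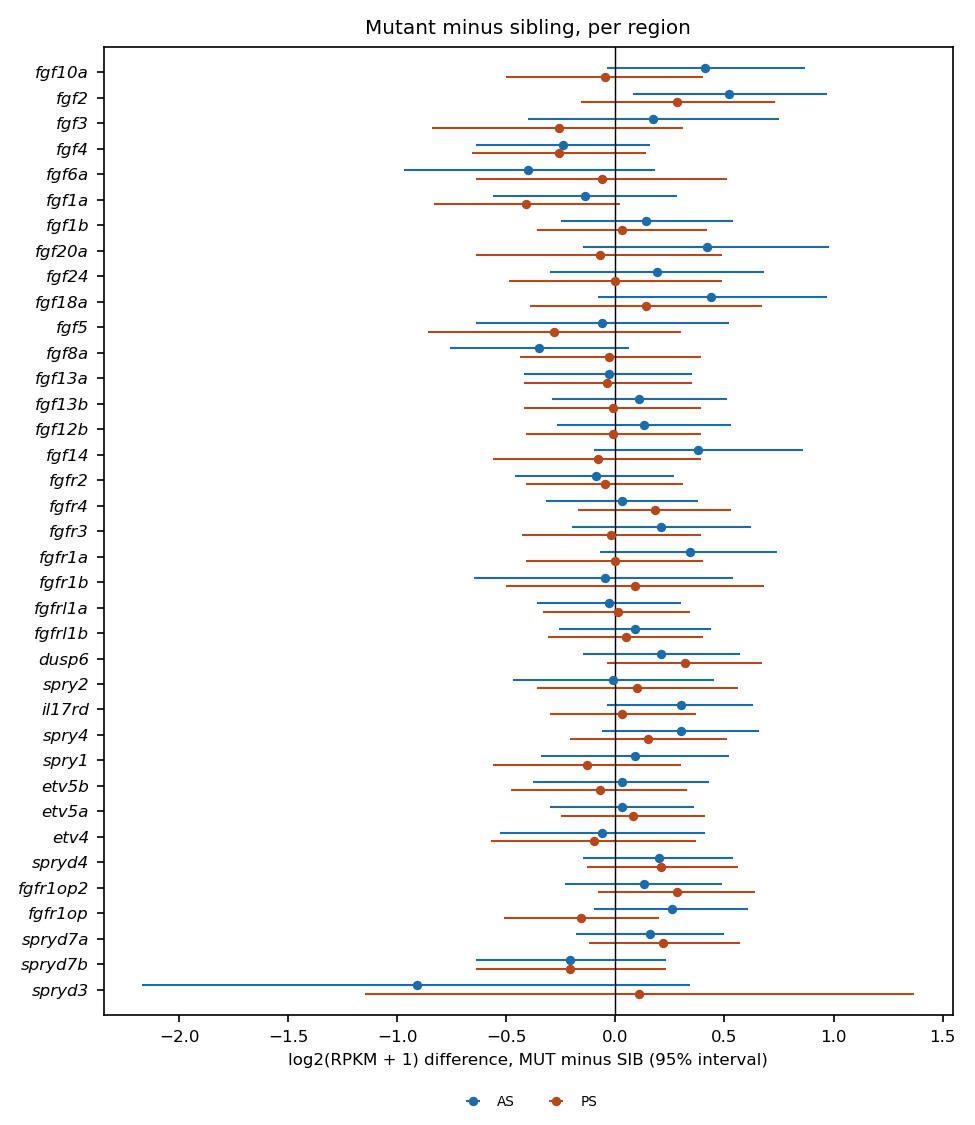
Difference between MUT and SIB on the log2(RPKM + 1) scale for each tested FGF gene, with 95% intervals from the limma fit, in AS (blue) and PS (orange). Points lie between -0.91 and 0.52 in AS and between -0.41 and 0.32 in PS, and every interval but that of fgf2 in AS includes 0.

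Whether the regional difference of a gene itself depended on genotype was tested as an interaction. In limma 0 of 37 FGF genes passed, beside a background of 0.0%, and 0 had an unadjusted p under 0.05, where 2.75% of all genes did. The genes called in MUT but not in SIB are therefore not shown to differ between genotypes. For fgf10a the interaction was 0.47 (95% interval -0.17 to 1.11) on the log2 scale, for fgf20a 0.49 (95% interval -0.31 to 1.29), for fgfr1a 0.34 (95% interval -0.23 to 0.91) and for etv4 0.04 (95% interval -0.62 to 0.70). Without MUT_AS replicate 1, spryd3 passed (-2.03, adjusted p = 0.00664).

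Other genes of the pathway were taken from lists. Of 28 listed genes of the cascade from adaptors to ERK, 23 were tested. In each genotype 11 were higher and 1 lower in AS, beside the same backgrounds of 42.0% and 9.86% in SIB and of 44.3% and 11.1% in MUT. The higher genes were not all the same: gab1 and map2k2b passed only in SIB, and raf1a and mapk3 only in MUT. plcg1, the phospholipase that FGF receptors bind, had a log2 difference of 0.98 in SIB and 1.38 in MUT (adjusted p = 0.000813 and 0.000137), and the kinase gene braf 0.88 and 1.16 (adjusted p = 0.00226 and 0.00043). Both remained called after median scaling, but most of the cascade did not: 2 were then higher and 2 lower in SIB, and 4 and 3 in MUT. nras, a Ras GTPase, was the lower one on the deposited scale, at -0.41 and -0.55 (adjusted p = 0.0358 and 0.00859). Further targets and modulators were listed under 24 names, with kal1a and kal1b also given as anos1a and anos1b. Of these 15 were tested, with 7 higher and 0 lower in SIB and 9 higher and 1 lower in MUT, beside those backgrounds. After median scaling 2 of these were higher and 3 lower in SIB, and 4 and 2 in MUT. All genes on that scale had 18.4% higher and 22.0% lower in SIB and 21.4% and 23.5% in MUT. The phosphatase gene dusp1 stood at 43.4 and 38.1 RPKM in SIB_AS, 35.8 and 34.4 in MUT_AS, 16.7 and 13.2 in SIB_PS and 14.7 and 17.9 in MUT_PS. hs6st2, which sulfates the heparan chains that FGFs bind, was higher in AS by 1.12 in SIB and 1.25 in MUT on the log2 scale (adjusted p = 0.000462 and 0.000191). Between genotypes 0 genes of either list passed in AS or in PS in limma. At an unadjusted p under 0.05 there were 4 in AS and 0 in PS for the cascade, and 1 and 2 for the further targets, where all genes had 11.8% in AS and 2.73% in PS. That is 4 of 23 and 1 of 15 in AS and 0 of 23 and 2 of 15 in PS. Those of the cascade were grb2b, hrasa and raf1a, higher in MUT_AS, and nras, lower. Of the further targets, egr1 was higher in MUT in AS (log2 difference 0.75, unadjusted p = 0.0254 in limma) and in PS (0.69, unadjusted p = 0.0349). The other in PS was cnpy1, also higher in MUT (0.35, unadjusted p = 0.0404).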

How the data were processed

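Polyadenylated RNA of 8 libraries was sequenced as 100-base paired-end reads. Per the series' design text, the authors aligned reads to Zv9/danRer7 with RUM and assigned each read to 1 transcript. Its version was not given in the sources used here. Values per RefSeq transcript are log2(RPKM + 1), per the file headers. The deposited columns headed fold change are ratios of log2 values and were not used. Of 14809 rows, 228 fill rows were dropped and the highest row of each symbol kept (13872). Read counts were not used here, the depth is unknown and no counting interval is given.

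Genes with a mean of at least 1 RPKM (10458) were fitted with limma 3.58.1 (R 4.3.3, statmod 1.5.0), with 1 mean per group over all 8 libraries, trend and robust moderation, and Benjamini-Hochberg adjustment. Differences are on the log2(RPKM + 1) scale and understate changes of low genes. The fit was tested on simulated data with the spread of each group. Region and genotype comparisons that include MUT_AS gave more false calls there than the adjusted threshold allows, and why was not tested. Far fewer genes were changed in the simulated data than passed in the real region comparisons. The size of the excess therefore does not carry over to the region comparisons. The fit uses 1 spread for all groups, and a fit with a weight per group was also run. The members and lists were chosen with earlier results of these data known. The 95% intervals are from the same fit and are not adjusted. Named in full were genes called in any comparison and, per role, the highest gene and that with the smallest genotype p. Sequences were not used here.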

Additional observations from a re-analysis of the deposited data

How the results depend on the processing

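Counts of FGF genes are given as higher and lower in AS. Median scaling gave 2 and 5 in SIB and 7 and 5 in MUT, and with MUT_AS replicate 3 also left out, a pairing added after the data were seen, 4 and 6 and 9 and 6. A pseudocount of 0.1 gave 3 lower in SIB. A minimum of 5 RPKM gave 11 higher in MUT and 1 lower in each genotype, because fewer genes were tested. A weight per group gave 22 and 5 in SIB, 19 and 1 in MUT and 0 between genotypes. Only the libraries compared gave 1 lower in MUT. The cause of the other shifts was not tested. Leaving out each library in turn gave 7 to 22 and 0 to 5 in SIB and 14 to 20 and 0 to 5 in MUT, and between genotypes 0 to 2 lower in AS, 0 higher in AS, 0 in PS and, for the interaction, 0 higher and 0 to 1 lower. Every other alternative kept these counts within 1.5 times.

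Median scaling lowers every AS minus PS difference by about the median of all genes. Of the 37 tested genes, those with a difference above 0 went from 31 to 19 in SIB and from 29 to 22 in MUT. Among the genes called in a region comparison or highest in their role, 3 turned below 0. fgf14 did so in SIB (-0.0044 with and without MUT_AS replicate 3), although its RPKM there was 1.87 times as high in AS as in PS. fgfrl1a was at -0.07 in SIB with and without that library, and at -0.11 and -0.24 in MUT. spryd4 was at -0.31 in SIB, and at -0.33 and -0.23 in MUT. With scaling and without that library spry4 in MUT was -0.033 and the genotype difference of etv4 in AS 0.14. Leaving out single libraries, spryd4 in MUT ran from -0.03 to 0.23 and etv4 between genotypes in AS from -0.35 to 0.24. Median scaling left 28 of 62 named differences in direction and call, and the replicate block 60 of 62.

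The titles end in 3 or in no number, which does not show pairing. Deviations of libraries with the same ending correlated at r = -0.0893 to 0.521 across genes over 6 pairs of groups. With this replicate block 19 genes were higher and 5 lower in AS in SIB, 20 and 4 in MUT, and 0 passed between genotypes. Depth is unknown, and 11 FGF genes listed at 0 in MUT_AS replicate 3 limit what that group shows for low genes.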

Other observations

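The 2 MUT_AS libraries differed from each other for several FGF genes. fgfr1b stood at 10.2 and 4.77 RPKM, fgf3 at 6.19 and 3.21, etv4 at 17.8 and 11.5 and etv5b at 28.3 and 20.2, in replicates 1 and 3, and both values lay above all PS values. spry2 went the other way, at 14.6 and 23.3, and overlapped with PS. Heart markers also differed between libraries of 1 group. The muscle gene myl7 of the heart stood at 13.0 and 0.431 RPKM in SIB_AS, 15.4 and 0 in MUT_AS, 0.122 and 0.533 in SIB_PS and 9.59 and 0.051 in MUT_PS. Its part in the FGF values was not tested.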
